A study of Mus musculus with 44 samples.

Results

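Dio2 and 8 other selenoprotein genes of the mouse brain (Gpx1, Gpx4, Selenow, Selenop, Selenom, Selenok, Selenot and Txnrd1) were followed through RNA-seq, ribosome profiling and poly(A)-tail sequencing. They were taken by symbol, 9 of the 17010 RefSeq transcripts with a symbol in the deposited files. The set was chosen by the tag level and tail length of Dio2 in light against dark, so those 2 values are a description and carry no test, and the other 8 were taken for sharing its selenocysteine. The visual cortex came from 8 mice aged 6 to 7 weeks and kept in the dark for 1 week, of which 4 stayed in the dark and 4 then saw light for 1 h. Each mouse had 1 PAL-seq v2 library, which gives a tag (1 sequenced mRNA 3′ end) and the length of its tail. All other samples had 1 library per assay: cortical cultures, which were prepared from newborn pups of both sexes and treated with AraC against dividing cells, and 3 tissues. After 14 days in vitro (DIV14), cultures were left unstimulated, given BDNF or both glutamate and glycine (glu/gly) over 30 min, or had been transduced with a lentivirus. The virus carried GFP alone or with miR-1 or miR-155, behind the synapsin promoter, which is active in neurons. DIV10 cultures were unstimulated or depolarized by KCl during 10 or 30 min. Adult cortex and hippocampus at both ages, adult and embryonic, completed the set, each as 1 sample. The hippocampal RNA-seq libraries came from poly(A)-selected RNA, and those of adult cortex and 6 cultures, which are not named, from RNA freed of ribosomal RNA.

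Selenoproteins contain selenocysteine, which is read from an in-frame UGA codon that would otherwise end translation. Reading it needs a stem-loop in the 3′ UTR, the SECIS element, a dedicated tRNA and binding proteins. Dio2 encodes the type 2 deiodinase, which turns the prohormone T4 into the active thyroid hormone T3. In the brain it is known from astrocytes and tanycytes. Gpx1 and Gpx4 are glutathione peroxidases and Txnrd1 is the cytosolic thioredoxin reductase. Selenop is a secreted carrier of selenium. Selenow is a small thioredoxin-fold protein, whereas Selenom, Selenok and Selenot belong to the endoplasmic reticulum.

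The UGA codons of the members lie at very different places in their reading frames, which matters for where ribosomes can be counted. Each sequence below is 27 bases of spliced mRNA from the RefSeq annotation of GRCm38.p6, written as DNA, with the recoded TGA in capitals.
Dio2: ggttcagccaccTGAccacctttcact
Gpx1: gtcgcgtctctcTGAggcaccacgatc
Gpx4: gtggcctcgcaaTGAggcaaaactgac
Selenow: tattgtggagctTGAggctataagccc
Selenom: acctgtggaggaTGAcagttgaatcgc
Selenot: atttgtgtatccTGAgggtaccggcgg
Selenok: atggctggtggaTGAggaaggtaaatg
Txnrd1: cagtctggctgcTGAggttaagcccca
Selenop, the 1st of 10: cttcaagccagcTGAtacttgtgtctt

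The TGA of Dio2 is codon 130 of 262, in exon 2 of 2, at chr12:90729823-90729825 on the minus strand. In Selenow it is codon 13 of 88 (chr7:15920464-15920466), inside the first 50 nt of the reading frame that the authors left out of their counts. At the other end, it is codon 612 of 613 in Txnrd1 (chr10:82896037-82896039) and codon 92 of 94 in Selenok (chr14:29973440-29973442), so that nearly every counted read of these genes lies before it. It is codon 47 of 201 in Gpx1, codon 129 of 253 in Gpx4, codon 48 of 145 in Selenom and codon 49 of 195 in Selenot. Selenop has 10 such codons, the first at codon 59 of 380 and the other 9 between codons 259 and 377. In Dio2, Gpx1 and Gpx4 the base after the TGA is C, G and G.

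Reads of some members could not be placed on 1 gene alone. Of all 30-base words in the counted reading frame, 62.7% for Gpx4, 85.0% for Selenok and 17.9% for Selenot also occur elsewhere in the genome, against 0 in each of the other 6 members. In the last 200 nt of the transcript this was 100% for Gpx4 and 0 for the other 8. The authors kept only uniquely mapped reads for the tail assays, and Gpx4 had 0 to 11 tags in every tail library. Its tags and tails are not compared, and the RNA and RPFs of Gpx4 and Selenok are uncertain.

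In the visual cortex, Dio2 mRNA was higher in every mouse that saw light, and its tails were longer. In the dark it had 90.3, 86.2, 108 and 100.02 CPM, its tags scaled to a common library total by TMM, edgeR's normalization. After 1 h of light it had 148, 171, 195 and 130.0 CPM. The lowest mouse in light was above the highest in the dark. Dio2 was chosen by its level and tail in these mice, and the share of all genes without overlap was not counted. The means were 96.2 ± 9.97 and 161 ± 28.3 CPM (SD, n = 4 each), and the edgeR estimate was a log2 fold change of 0.76 ± 0.13 (SE), or 1.70-fold. The counts behind these values were 125 to 415 tags per mouse.

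The mean tail of Dio2 was 84.9, 90.0, 78.5 and 81.5 nt in the 4 mice in the dark. In light it was 104.0, 117, 118 and 107 nt. Again the groups did not overlap, but Dio2 was chosen by these values. For tails, too, the share of all genes without overlap was not counted. The means were 83.7 ± 4.91 and 111 ± 7.08 nt (SD, n = 4 each), with a difference of 27.6 ± 6.68 nt (SE). The median over all 4321 genes compared also moved, by 3.75 nt, and after each mouse was centred on its own median the difference for Dio2 was 23.6 nt. Just below it by size lay Crem, with 27.4 nt, and Mbp, with 27.1 nt. Of all genes tested, 1.21% passed as higher and 0.126% as lower in level (128 of 9554, edgeR, Benjamini-Hochberg adjusted p under 0.05), and 0.231% as longer and 0.0% as shorter in tail (10 of 4321, limma).

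**Figure D1:**
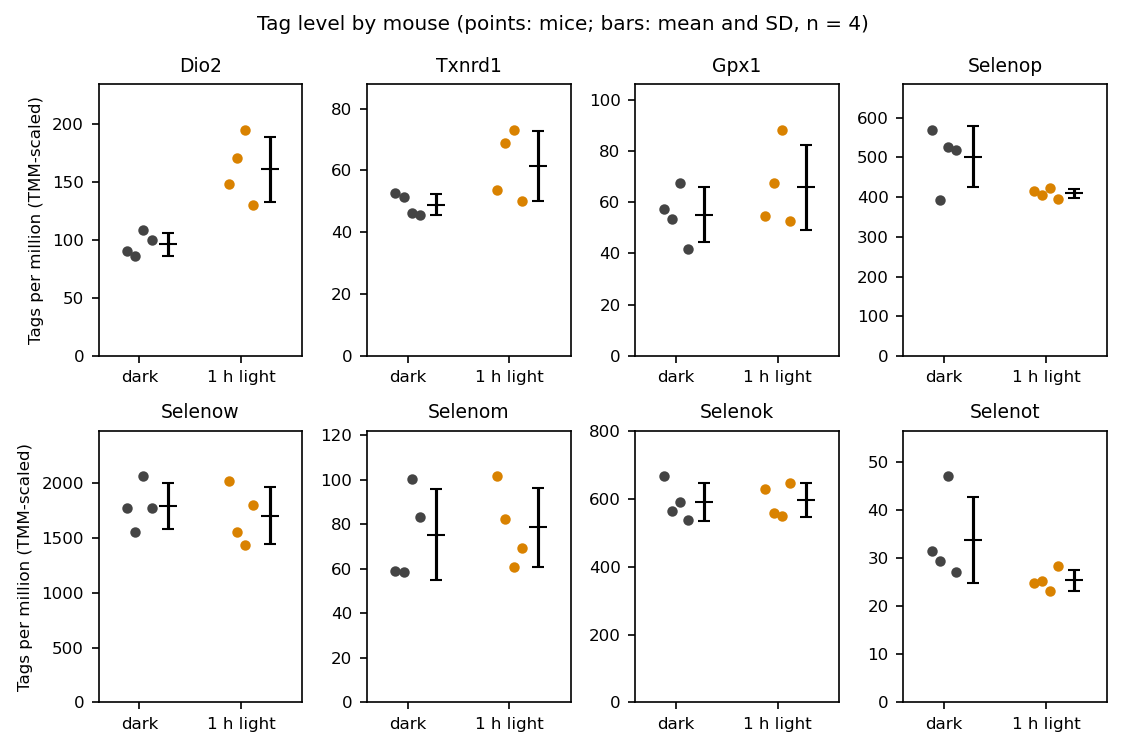
Tag level (CPM, TMM-scaled, linear axes from 0) of 8 selenoprotein genes in the visual cortex of mice kept in the dark (grey) or given 1 h of light (orange). Points are mice and bars the mean and SD of 4. Dio2, which was chosen by these values, lies at 130.0 to 195 in light and at 86.2 to 108 in the dark.

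None of the other members passed in the same fits, beside 1.21% higher and 0.126% lower of all genes in level and 0.231% longer in tail. For level, 0 of 7 passed edgeR (2 at an unadjusted p under 0.05, Selenop and Txnrd1, and 0 with DESeq2). For tails, 0 of 6 passed limma (0 at an unadjusted p under 0.05).

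Txnrd1, which reduces thioredoxin with NADPH, had 52.7, 51.3, 46.3 and 45.6 CPM in the dark and 53.7, 68.9, 73.2 and 50.2 in light. In light 2 mice were well above the dark range and the other 2 within or close to it (log2 fold change 0.32 ± 0.15, edgeR adjusted p = 0.50). The same 2 mice had the long tails: 90.0, 113, 110 and 75.9 nt in light, against 84.4, 84.4, 92.1 and 90.5 nt in the dark (difference 9.50 ± 6.68 nt, limma adjusted p = 0.999). Over all genes the median tails of these 2 mice were the longest of the 8, at 94.1 and 97.5 nt.

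Selenop had lower values in most mice in light, without passing. It had 570, 393, 527 and 518 CPM in the dark and 415, 404, 422 and 396 in light. Replicate 2 of the dark group, the deepest library, lay below all the light mice and the other 3 lay above them (log2 fold change -0.29 ± 0.10, edgeR adjusted p = 0.27). Without that mouse the change was -0.38 and passed (adjusted p = 0.031). Astrocyte markers, whose cells also express Selenop, summed to 4085 to 5098 CPM in the dark and 3809 to 4141 in light, with 0 of 9 passing edgeR (2 at an unadjusted p under 0.05, Gfap and Aldoc, and 0 with DESeq2). Their part in the Selenop values was not tested. In bulk tissue, fewer cells of a type and less RNA per cell cannot be told apart. Tails of Selenop were 79.8 to 92.9 nt in the dark and 83.2 to 91.8 nt in light.

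Tags count 1 per mRNA 3′ end, but some genes well covered by RNA-seq drew too few tags to be tested. Thra, with 565 CPM of RNA-seq in adult cortex, is 1 of them. The order of genes below is therefore an order of tags only. Selenow had the most tags of the members in the mice, at 1554 to 2064 CPM in the dark and 1441 to 2017 in light (log2 fold change -0.07 ± 0.10, edgeR adjusted p = 0.90). Selenok followed, at 538 to 668 and 550 to 648 CPM (log2 fold change 0.02 ± 0.09, adjusted p = 0.98). Their tails differed by 1.88 and 8.85 nt, with the dark and light mice mixed. Gpx1 had 41.6 to 67.5 CPM in the dark and 52.6 to 88.3 in light (adjusted p = 0.68), and its tails differed by -1.07 nt. Selenom had 58.6 to 101 and 61.0 to 102 CPM (adjusted p = 0.93). Selenot had the fewest tags of the members tested, at 27.2 to 47.1 and 23.2 to 28.4 CPM (edgeR adjusted p = 0.57). It had under 50 tags in some mice, so its tails were not tested. In each of these 5 genes the light and dark groups overlapped.

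The stimulus itself was seen in all 7 immediate-early genes taken as a check (Fos, Fosb, Egr1, Npas4, Arc, Nr4a1, Junb), all of which rose (edgeR, 6 of 7 with DESeq2). Nr4a1, a nuclear receptor induced by activity, rose 17.5-fold and Junb, an AP-1 subunit, 5.13-fold. Of the markers of other cell types, 0 of 9 for astrocytes, 0 of 6 for microglia, 0 of 6 for oligodendrocytes, 0 of 2 for endothelium and 0 of 7 for neurons passed in level, with 2, 0, 2, 0 and 0 at an unadjusted p under 0.05 and 0 with DESeq2 in each. Over all genes tested, 1.21% passed as higher and 0.126% as lower. Of the marker tails, 1 passed limma, that of Mbp, a myelin protein of oligodendrocytes, whose marker levels summed to 795 to 1377 CPM in the dark and 549 to 1019 in light. Choroid plexus markers were near 0, at 1.81 to 8.64 CPM in all.

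None of the genes tested in 4 lists of other selenoproteins and partner genes passed in light. The 4 lists below hold 15, 12, 14 and 17 genes, and only those with enough tags were tested. Over all 9554 genes tested, 1.21% passed as higher and 0.126% as lower in level, and 0.231% of 4321 as longer in tail. At these shares, 0 called in lists of this size does not set them apart from all genes. Of the other selenoproteins, 7 were measured and 0 passed (0 at an unadjusted p under 0.05). The most abundant of them were Selenof, Selenos and Selenoh, and Selenof, a protein of the endoplasmic reticulum, had 281 ± 23.4 CPM in the dark and 260 ± 21.3 in light (SD, n = 4 each). Of 9 measured genes for the synthesis and insertion of selenocysteine, 0 passed (1 at an unadjusted p under 0.05, the kinase Pstk), and Ncl, Secisbp2l and Elavl1 were the most abundant. Of 9 genes for the transport and response to selenium and thyroid hormone, 0 passed (1 at an unadjusted p under 0.05). Crym, Thrb and Usp33 had the most tags of these 9, and Thrb, a nuclear receptor of T3, had 187 ± 11.6 and 178 ± 31.2. Thra, of the same list, had too few tags to be ranked. Of 16 glutathione and thioredoxin partners, led by Prdx6, Txn1 and Prdx2, 0 passed (0 at an unadjusted p under 0.05). DESeq2 called 0 in each of these 4 lists, and limma called none of their measured tails (0 at an unadjusted p under 0.05). The medians of the 4 lists were -0.05, -0.10, 0.00 and -0.03 on the log2 scale, beside -0.00 over all genes tested.

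The genes whose level over the 8 mice was most like that of Dio2, by Pearson's r of log2(CPM + 1) among 9553 genes, were Egr3 (r = 0.97), Dnajb1 (0.97), Grasp (0.97), Pdp1 (0.96) and Bhlhe40 (0.96). The 8 mice form a dark and a light group, and all of these values share the step between them. Each of these genes was itself called as higher in light (edgeR). The Dio2 levels used are those by which the set was chosen, so the ranking is a description and carries no test. Egr3 also had the largest tail change of the 4321 genes, 47.5 nt.

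The promoter of Dio2, as annotated from 250 bases before to 50 after its start, holds an exact cAMP response element (TGACGTCA, its own reverse complement). The stretch is shown since cAMP signaling is known to induce Dio2 in other tissues. Its element, in capitals, begins 95 bases before the start site, at chr12:90739116-90739143 (GRCm38.p6) on the minus strand.
Dio2 promoter: tctttctcaaTGACGTCAagatctttag

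The same 8 letters occur in 1.79% of 32851 annotated mouse promoters of this length and in no promoter of the other 8 members. A match is a description of the sequence and no binding was measured here.

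In the cultures Dio2 was scarce. RNA-seq gave 2 reads in the unstimulated DIV14 culture, 4 with BDNF, 4 with glu/gly, and 5, 11 and 10 in the GFP, miR-1 and miR-155 cultures. At DIV10 it gave 3 reads unstimulated, 1 after 10 min of KCl and 0 after 30 min, which allows up to 3.74 CPM at 3 counts and up to 4.59 by the exact Poisson interval. Adult cortex had 66, adult hippocampus 191 and embryonic hippocampus 67. Scaled to the reads on genes (CPM), the order was adult cortex (38.6, 95% counting interval 29.9 to 49.1), adult hippocampus (26.2, 22.6 to 30.2), the miR-1 culture (11.4), the GFP culture (11.2), embryonic hippocampus (8.71, 6.75 to 11.1) and then the other 7 cultures, from 8.34 down to 0. The intervals of the 2 adult tissues overlap narrowly, and so do those of embryonic hippocampus and every culture but that with 0 reads. Adult cortex lies above all cultures beyond its interval, and adult hippocampus above all but the GFP culture, whose 5 reads allow up to 26.0 CPM. Counting intervals and limits here cover counting error only and not the spread between animals or cultures.

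Ribosome-protected fragments (RPFs) were also highest in the adult tissues. Dio2 had 857 RPFs (39.6 CPM) in adult hippocampus and 238 (31.7 CPM) in adult cortex. It had 58 (2.499 CPM) in embryonic hippocampus and 4 to 20 (1.31 to 4.15 CPM) in the 7 cultures compared. Tail tags numbered 58 (96.7 CPM) in adult cortex and 3 to 23 (6.25 to 29.1 CPM) in the 9 cultures. Adult cortex therefore had 9.82 times the RNA-seq level of the DIV14 unstimulated culture (2.61 to 82.8, since the culture had 2 reads), 7.65 times the RPFs (4.74 to 13.1) and 4.38 times the tags (2.66 to 7.45). Astrocyte markers summed to 3819 CPM in the RNA of adult cortex, to 3434 in adult hippocampus, to 877 in embryonic hippocampus and to 1169 to 2229 in the cultures, and their part in the Dio2 values was not tested. Between adult cortex and the unstimulated DIV14 culture the markers did not move together. Slc1a2, a glutamate transporter, had 2082 and 126 CPM, whereas 3 of 7 measured were lower in cortex past 2-fold (Gfap, Aqp4 and Aldh1l1) and the median log2 change was -0.85.

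**Figure D2:**
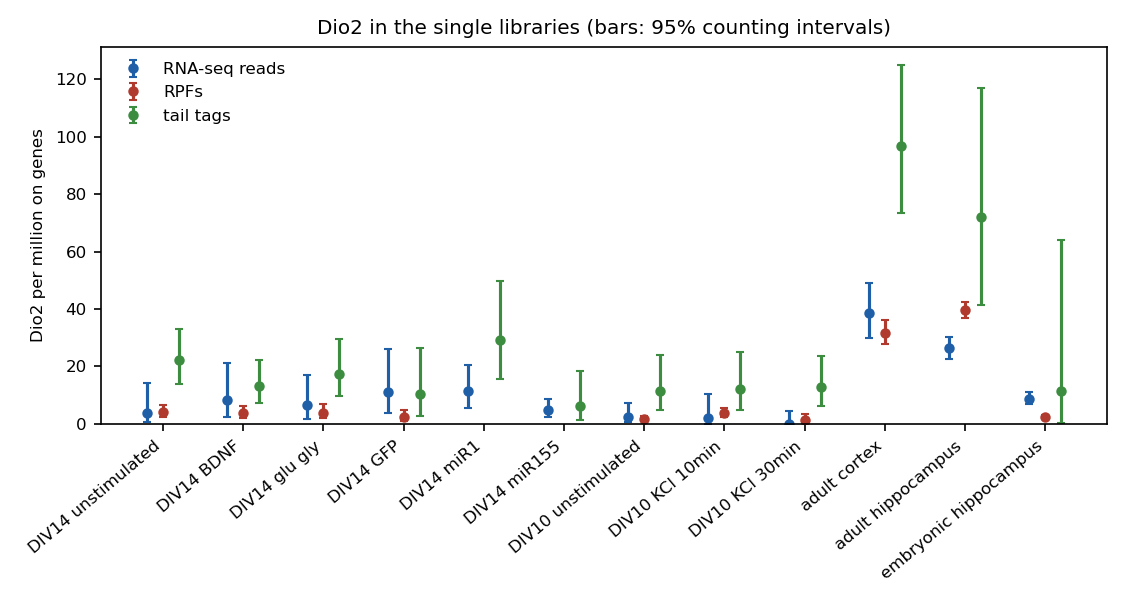
Dio2 in each culture and tissue, as RNA-seq reads (blue), RPFs (red) and tail tags (green) in CPM on genes, with 95% counting intervals and no replicates. Adult cortex and adult hippocampus stand above the cultures and embryonic hippocampus in reads and RPFs (38.6 and 26.2 CPM of reads, 31.7 and 39.6 CPM of RPFs).

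No stimulus moved Dio2 by more than its counts could resolve, with 1 exception. After 10 min of KCl it had 20 RPFs against 15 in the control, or 3.63 against 1.58 CPM (2.29-fold, 1.12 to 4.81). With 1 read and 3 reads of RNA behind them, no change of TE could be given. The tails in the cultures rest on 3 to 23 tags, under the minimum of 50. Adult cortex, with 58 tags, had a mean Dio2 tail of 124 nt by TAIL-seq. The tails of the mice came from PAL-seq v2, and lengths from the 2 assays are not compared here.

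The genes most like Dio2 over the 12 RNA-seq libraries, by Pearson's r of log2(RPM + 1) among 6227 genes, were Atf6, Vps13b, Vps13c, Usp31 and Mpp2 (r = 0.97 to 0.96). The 12 libraries differ in depth and RNA selection, which these values share. Dio2 itself had 9.69 RPM in adult hippocampus and 9.34 in adult cortex, and 0 to 11 reads in each culture. Its culture values therefore lie near the floor, and the ranking is a description only.

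Between adult and embryonic hippocampus, both from poly(A)-selected RNA, Selenop was higher and Txnrd1 lower in the adult, and the other 3 members tested did not pass. A change is counted where it passed 2-fold among genes with at least 10 RPM in both libraries, by reads on genes. Of 5 members tested, 1 was higher (Selenop) and 1 lower (Txnrd1), against 15.2% and 18.0% of 5436 genes (826 and 976, or 583 and 1506 by the authors' RPM, with the same 2 members). Txnrd1 had 2217 RNA-seq reads (288 CPM) in the embryo and 496 (68.1 CPM) in the adult, 0.236-fold (0.214 to 0.261). Its RPFs (0.200-fold, 0.188 to 0.212) and tags (0.174-fold, 0.0654 to 0.420) were lower as well. Selenop had 39.0 CPM in the embryo and 203 in the adult (5.21-fold, 4.603 to 5.92), with RPFs 3.73-fold and tags 4.54-fold higher. Of choroid plexus markers, whose tissue is rich in Selenop, Ttr, a thyroid hormone carrier, had 577 CPM in the embryo and 1361 in the adult and made up most of their sums (634 and 1472), Kl had 0.390 and 69.4, and Folr1, Clic6 and Kcne2 had lower values in the adult, with 11.1 and 10.6, 40.4 and 28.4, and 5.33 and 2.88. Of 6 astrocyte markers measured, 5 were higher in the adult past 2-fold and 1 lower (Sox9), with a median log2 change of 1.603. The part of either list in the Selenop values was not tested.

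Members under the 10 RPM minimum had enough reads for an interval. Dio2 was 3.01-fold higher in the adult by RNA (2.27 to 4.04) and 15.8-fold by RPFs (12.1 to 21.03). Selenom, an oxidoreductase of the endoplasmic reticulum, was 4.89-fold (3.89 to 6.22) and 10.9-fold higher (9.04 to 13.3). Selenot, which passed the minimum, was 1.70-fold higher by RNA and 3.82-fold by RPFs. Selenow was 1.43-fold higher by RNA and 0.725-fold by RPFs, and Gpx1 was 0.785-fold by RNA (0.690 to 0.893).

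**Figure D3:**
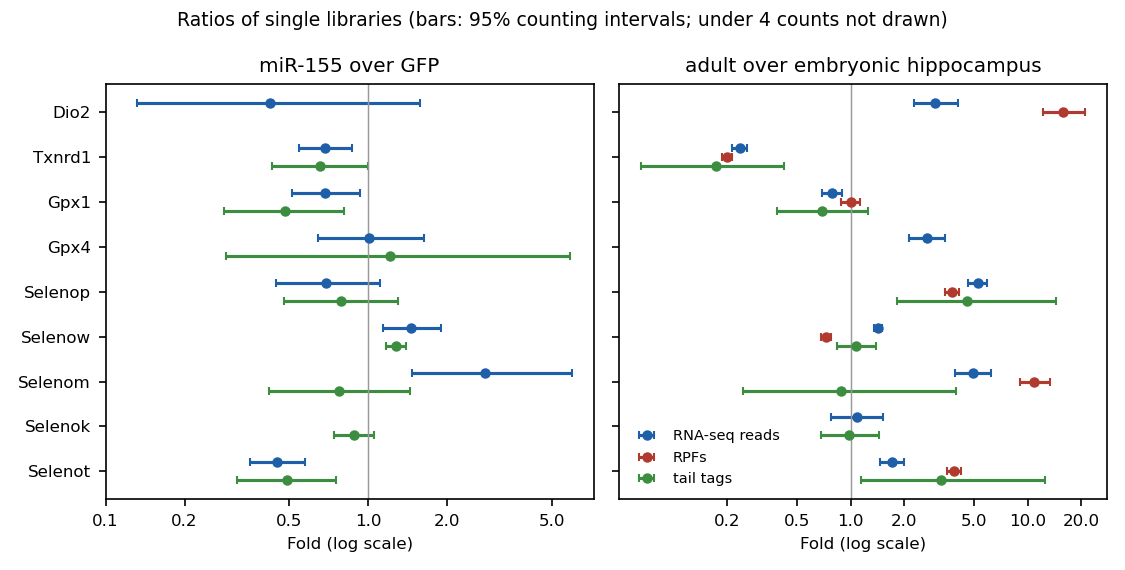
Ratios of single libraries for the 9 genes, on log axes, for miR-155 over GFP (left) and adult over embryonic hippocampus (right). RNA-seq reads are blue, RPFs red and tail tags green, with 95% counting intervals; Selenot lies near 0.450 and 0.492 with miR-155, and Txnrd1 near 0.2 in the adult.

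Translational efficiency (TE), the log2 ratio of RPFs to RNA-seq in the authors' RPM, separated the members. Txnrd1 was near the median of all genes in all 10 pairs of libraries, from -0.34 to 0.54 around it. Selenop was below it in all 10, by 0.46 to 2.24, and so was Gpx1, by 0.20 to 1.88. In the unstimulated DIV14 culture 5.95% of 5128 genes had a lower TE than Gpx1 and 3.61% had a lower one than Selenop. Selenot was below the median in 9 of 10, by up to 0.75, and 0.93 above it in adult hippocampus. The TE of Selenow was within 0.47 of the median in the cultures and 0.79 below it in adult cortex. In adult and embryonic hippocampus it was 2.47 and 1.56 below the median, where RNA-seq of poly(A)-selected RNA gave 3812 and 2814 reads. What RNA selection contributed to these TE values was not tested.

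The TE of Dio2 lay 0.78 above the median in adult hippocampus (log2 TE 1.65, 1.43 to 1.89), at the median in adult cortex (1.31, 0.91 to 1.72) and 1.69 below it in embryonic hippocampus (-1.02, -1.55 to -0.49). The 3 intervals show that the embryonic value is apart from both adult values by more than counting error. Adult cortex RNA was freed of ribosomal RNA, whereas that of both hippocampi was poly(A)-selected, and the part of this difference was not tested. Selenom was lowest in the embryo too, with 0.71 above the median in adult cortex, 0.15 above it in adult hippocampus and 1.08 below it in the embryo. Among members past the RNA minimum, 1 of 5 passed 2-fold between the hippocampi (Selenot, higher in the adult, also by reads on genes), against 15.8% of 5431 genes higher and 7.66% lower.

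RPFs of 2 members were all but missing in 1 tissue each. Gpx4 had 1 RPF in embryonic hippocampus and 363 in the adult, although RNA-seq gave 104 and 265 reads. Selenok had 2 RPFs in adult hippocampus and 78 in the embryo, with 75 and 73 reads of RNA and 103 and 41 tags. These are the members with the most 30-base words found elsewhere in the genome, and the part of mapping in these values was not tested.

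Adult cortex and the unstimulated DIV14 culture differ in age and cell makeup. Of 5 members tested, 1 was higher in cortex past 2-fold (Selenop) and 2 were lower (Gpx1 and Txnrd1), against 11.4% and 13.1% of 4087 genes (467 and 535, or 602 and 340 by the authors' RPM, with the same 3 members). Selenop had 90.4 CPM in the culture and 255 in cortex (2.82-fold, 2.08 to 3.91), and its RPFs were 6.27-fold higher. Txnrd1 had 232 and 94.2 (0.406-fold, 0.318 to 0.519), and RPFs and tags gave 0.379-fold and 0.368-fold. Gpx1 had 159 and 62.0 by RNA-seq (0.390-fold), whereas its tags were 1.51-fold higher (1.14 to 2.01), so its direction turned with the assay. For TE, 2 of 5 were higher (Gpx1 and Selenop) and 0 lower, against 6.02% and 12.4% of 4086 genes, and also by reads on genes. The TE of Gpx1 rests on its RNA-seq ratio, which the tags turned, since its RPFs were 1.06-fold (0.881 to 1.27). The mean tail over 2663 genes was a median of 12.4 nt shorter in cortex, and the 5 members measured changed by -12.6 nt (Selenow) to 5.57 nt (Gpx1).

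The partner genes were counted between the hippocampi in the same way, by RNA-seq reads and past 2-fold, beside the 15.2% higher and 18.0% lower of all genes. Of 7 measured genes for selenocysteine synthesis and insertion, 0 were higher and 4 lower in adult than in embryonic hippocampus. The 4 were Sephs1, Eif4a3, Ncl and Elavl1, the last 3 being RNA-binding proteins with general roles. Ncl, nucleolin, had 915 CPM in the embryo and 405 in the adult. Of 8 transport and hormone genes, 2 were higher (Ttr and Usp20) and 1 lower, Lrp8, a receptor for Selenop, with 440 CPM in the embryo and 61.9 in the adult. Of 4 other selenoproteins none passed.

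The 4 stimuli left most members within 1.5-fold, the size at which a change is counted in the cultures, among genes with at least 10 RPM in both libraries. With BDNF, 0 of 7 members were higher in RNA and 2 lower, against 2.51% and 3.25% of 4706 genes. These were Gpx1, with 81 reads in the control and 46 with BDNF (0.603-fold, 0.410 to 0.876), and Selenop, with 46 and 26 (0.600-fold, 0.356 to 0.991). Tags gave 0.841-fold (0.631 to 1.12) and 0.689-fold (0.534 to 0.885), and also a lower Txnrd1 (0.654-fold, 0.526 to 0.811), which was 0.782-fold by reads (0.586 to 1.04). For RPFs 0 of 7 were higher and 1 lower (Gpx4), against 0.446% and 1.96%, and for TE by the authors' RPM 0 of 7 passed, against 1.76% and 7.16%. By reads on genes 1 was higher in TE (Selenop), as were 150 of 4705 genes. Astrocyte markers summed to 2229 CPM in the control and 1729 with BDNF, with 2 of 7 measured lower past 1.5-fold (Aqp4 and Gja1) and a median log2 change of -0.41, and their part in the Gpx1 and Selenop values was not tested.

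With glu/gly, 0 of 4 members passed in RNA in either direction, against 5.41% and 5.2% of 4732 genes (256 higher and 246 lower, or 453 and 116 by the authors' RPM, which moved the median of all genes to 0.07). Selenop, under that minimum, was 0.441-fold in RNA (0.258 to 0.738, with 24 reads against 46) and 0.727-fold by tags (0.553 to 0.951), while astrocyte markers summed to 1780 CPM against 2229. By tags Txnrd1 was lower here as well (0.649-fold, 0.510 to 0.821). Of the RPFs, 0 of 4 were higher and 2 lower, against 1.1% and 2.54% (52 and 120, or 13 and 413 by the authors' RPM, with the same 2 members). Gpx1 had 182 RPFs in the control and 61 with glu/gly (0.517-fold, 0.380 to 0.694), and Selenow had 733 and 304 (0.640-fold, 0.558 to 0.732). In TE by the authors' RPM both were lower past 1.5-fold, against 0.993% of genes higher and 23.1% lower, with the median of all genes at -0.30. By reads on genes the TE of neither passed, with 287 genes higher and 305 lower and the median at 0.01.

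After 10 min of KCl, 0 of 6 members passed in RNA, against 1.96% higher and 1.82% lower of 4735 genes (93 and 86, or 275 and 18 by the authors' RPM), and 0 of 6 in RPFs, against 0.887% and 12.5%. In TE by the authors' RPM 1 of 6 was lower (Selenow), against 0.528% higher and 36.0% lower, with the median of all genes at -0.41. By reads on genes 0 of 6 passed, with 223 genes higher and 809 lower and the median at -0.06. After 30 min, 0 of 4 passed in RNA, against 9.45% and 5.4% of 3535 genes (334 and 191, or 20 and 1159 by the authors' RPM, by which Gpx1 and Txnrd1 were lower past 1.5-fold), and 0 of 4 in RPFs, against 1.75% and 11.3%. In TE by the authors' RPM, which moved the median of all genes to 0.32, 3 of 4 were higher (Gpx1, Selenot and Txnrd1), against 30.9% and 6.34%. By reads on genes none of these 4 passed, with 258 genes higher and 698 lower and the median of all genes at -0.12.

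Tails of the members are given beside those of all genes with as many tags. With BDNF the 6 members with at least 50 tags changed by a median of 1.13 nt, beside -1.04 nt over 4098 genes. With glu/gly this was -4.004 nt beside -4.68 nt, with Selenop at -14.0 nt (from 99.0 to 85.0 nt). After 10 and 30 min of KCl it was -0.97 beside -0.16 nt and 1.22 beside 2.22 nt. With miR-1 the 4 members measured changed by a median of -6.82 nt beside -2.52 nt over 1748 genes, and with miR-155 the 2 measured by -1.63 nt beside -0.86 nt over 1783. Txnrd1 had the longest tails of these 6 members in each of these 6 cultures, 116 to 125 nt, and Selenok or Selenot the shortest in all but the glu/gly culture, where Selenop was the shortest.

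Selenot was the 1 member lower past 1.5-fold by RNA-seq in the miR-155 culture. With miR-155, 0 of 4 members were higher and 1 lower in RNA, against 2.76% and 3.71% of 4124 genes. This was Selenot, an endoplasmic reticulum protein of the thioredoxin-like family, with 237 CPM with GFP and 107 with miR-155 (106 and 225 reads, 0.450-fold, 0.356 to 0.573). Its tags were at 157 and 77.1 CPM (61 and 37 tags, 0.492-fold, 0.318 to 0.753). In the miR-1 culture Selenot was 0.903-fold by RNA (0.711 to 1.153) and 0.787-fold by tags (0.536 to 1.152), so both intervals include 1. There 0 of 4 members were higher and 1 lower (Gpx1, 0.609-fold, 0.430 to 0.867), against 3.65% and 5.22% of 4272 genes (156 and 223, or 664 and 52 by the authors' RPM, by which Gpx1 did not pass and Selenow was higher).

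Selenot is also the member whose 3′ UTR matches the miR-155 seed. The mature miRNA is shown with its seed (bases 2 to 8) in capitals, and the 3 matches with the paired bases in capitals. The search was made after the values of Selenot were seen.
mmu-miR-155-5p: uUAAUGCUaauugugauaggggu
Selenot, base 261 of the 3′ UTR: ttcttgacacAGCATTActacttgtaa
Selenot, base 813: tgcctctcttAGCATTAtttttaacaa
Selenot, base 2099: aaggttttttGCATTAAttaaaaagtt

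The first 2 pair with bases 2 to 8 of the miRNA (AGCATTA), at chr3:58590916-58590942 and chr3:58591468-58591494. The third pairs with bases 2 to 7 and has an A opposite base 1 (GCATTAA), at chr3:58592754-58592780. All lie on the plus strand of GRCm38.p6, counted from the first base after the stop codon. Such matches occur in 12.0% of 16489 3′ UTRs searched and in none of the other 8 members. The 3′ UTR of Selenot is 2879 nt long, longer than 87.2% of those searched. That of Dio2, at 4872 nt, is the longest of the 9 and holds no match.

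Other members also moved in the miR-155 culture within or outside the count minimum. Txnrd1 was 0.687-fold by RNA (0.548 to 0.868) and 0.659-fold by tags (0.430 to 1.00), and Gpx1 was 0.686-fold (0.511 to 0.933) and 0.483-fold (0.282 to 0.811), so both passed 1.5-fold by tags and not by RNA-seq. Selenow was higher, 1.46-fold by RNA (1.14 to 1.89) and 1.28-fold by tags (1.17 to 1.40). Selenom, under 10 RPM, was 2.80-fold by RNA, from 10 reads with GFP, and 0.778-fold by tags, so its direction turned with the assay. Astrocyte markers summed to 1678 CPM in the GFP culture and to 1478 and 1169 CPM in those of miR-1 and miR-155, and their part in these ratios was not tested.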

How the data were processed

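RNA-seq and RPF files hold the authors' read counts per gene, RPM and RPKM, deposited per sample. The RPKM, RPM divided by the authors by the counted length in kb, were not used. Reads were counted by the authors on the open reading frame without its first 50 nt, and their notes name STAR 2.4.2, bedtools and mm10. For tails the deposited values are tag counts and a mean or median length (nt), made by TAIL-seq for cultures and adult cortex and by PAL-seq v2 elsewhere. The authors' log2 TE values were used as an alternative. RNA-seq reads on genes numbered 448022 to 7689624, RPFs 817114 to 23212489 and tags of the 8 mice 1233538 to 4812273. For Dio2 the deposited counted length was 751 nt, which is not that of the RefSeq coding sequence (789 nt with the stop) less 50 nt, so the codon positions given here may not match the counted stretch exactly. The members and lists were chosen with earlier results of these data known.

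Mice were compared with edgeR 4.0.16 quasi-likelihood tests on TMM-scaled tag counts kept by filterByExpr, and limma 3.58.1 on mean tails of genes with at least 50 tags per mouse, light as the only term, adjusted over all genes. Limma gave every gene the same SE. Both fits were run on simulated data, with tails drawn at 1 common SD. Shifts shared by all genes of a mouse were left out of it, so that run cannot show how the tail fit behaves with them. Single libraries were scaled by reads on genes and given with 95% Clopper-Pearson or exact Poisson intervals, without a test. TE used the authors' RPM, with reads on genes as an alternative added after seeing the data. Named genes were the 9 members and, of each list, those called in light or else the 3 most abundant by tags. Others named (Pstk, Gfap, Aldoc, Ttr, Usp20, Lrp8, Sephs1, Eif4a3, Nfe2l2, Crem, Thra) and the sequence searches were chosen after values were seen. DESeq2 1.42.0 was an alternative. Likeness was ranked by Pearson's r. Gene positions, sequences and promoters came from RefSeq on GRCm38.p6, and all 9 members matched. Of 30 groups of 4 mice, none held a mouse past Dixon's limit. The RPF libraries whose labels name both miR-1 and miR-155 entered no comparison. Hippocampal tail lengths, whose measure is not named, were taken as medians and left out of level comparisons. For 1 gene of the lists the values are not reported here.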

Additional observations from a re-analysis of the deposited data

How the results depend on the processing

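The log2 fold change of Dio2 in light stayed between 0.66 and 0.86 over 13 alternatives (other size factors, DESeq2, other count minimums, the replicate block and leaving out each mouse) and its tail difference between 23.6 and 30.0 nt over 12. Dio2 was chosen by these values in the same mice, so their ranges are a description and carry no test. Genes called in level numbered 128, with 55 at a minimum of 50 tags in each mouse and 100 to 150 when 1 mouse was left out. Genes called in tail numbered 10, with 1 on the log2 scale, 3 after centring each mouse and 1 with the replicate block, and 1 to 21 when 1 mouse was left out. It was 19, 2, 1 and 1 without replicates 1 to 4 of the dark group and 9, 1, 2 and 21 without those of the light group. No other member was called in any alternative except Selenop, lower without replicate 2 of the dark group. The replicate numbers did not pair the mice (correlations of same-numbered mice -0.20 to 0.12). With the replicate block, 113 genes were called in level and no member's call changed.

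In the cultures, 4 member changes in RNA passed 1.5-fold, and 0 of 13 did at a minimum of 30 RPM, where fewer were measured. Of 6 in TE, 3 remained past it at that minimum. By reads on genes, an alternative added after seeing the data, 1 passed in TE, Selenop with BDNF, which is not among these 6. The authors' RPM and tail tags each gave 6 in place of these 4, not all of the same members. The median log2 change of all genes moved with the authors' RPM, to -0.41 after 30 min of KCl, 0.26 with miR-1 and 0.17 after 10 min of KCl. Dio2 had 0 to 11 RNA-seq reads in each culture. The cause of the other shifts was not tested.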

Other observations

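The labels of 2 RPF libraries of the miRNA experiment name both miR-1 and miR-155, so they belong to no group here. Dio2 had 7 RPFs (8.57 CPM, scaled to the RPFs on genes) in the first, which is shallow (817114 RPFs), and 12 (1.87 CPM) in the second. Selenot had 122 and 362 RPFs, or 149 and 56.3 CPM, and Selenow 176 and 129 CPM. Txnrd1 had 103 and 116 CPM, Gpx1 33.0 and 16.8, and Gpx4 19.6 and 21.5.

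Selenow, the most abundant member by tags, had 1781 to 2602 CPM in the 9 cultures and 2137 in adult cortex, and 1064 and 990 in adult and embryonic hippocampus. By RNA-seq the order was reversed, with 154 to 238 CPM in the cultures and 167 in adult cortex against 524 and 366 in the hippocampi, whose RNA had been poly(A)-selected. The tags came from TAIL-seq in the cultures and adult cortex and from PAL-seq v2 in the hippocampi. The parts of the RNA selection and of the tag assay were not tested.

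Prdx6, a peroxiredoxin of astrocytes and other cells, and Nfe2l2, the transcription factor of the oxidative stress response, were among the glutathione and thioredoxin partners lower past 1.5-fold in RNA-seq reads on genes with BDNF, with glu/gly and after 30 min of KCl. In the BDNF culture 3 of 12 measured partners were lower and 1 higher, beside 3.25% and 2.51% of all genes. With glu/gly this was 5 of 11 and 0 beside 5.2% and 5.41%, after 10 min of KCl 1 of 12 and 0 beside 1.82% and 1.96%, and after 30 min 2 of 10 and 1 beside 5.4% and 9.45%. BDNF and glu/gly share 1 control library, and so do both KCl times. These genes were singled out after their values were seen.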
